A study of Mus musculus with 3 samples.

Results

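The Rab GTPases are described here in glomeruli, the capillary tufts that filter blood in the kidney. They came from 3 male mice of the inbred strain FVB/NJ, aged 8 weeks and nondiabetic, which are the controls of the diabetic OVE26 line. The animals were fed a standard diet, and no transgene or drug is named for them. One whole-genome 3′ expression array was hybridised per mouse (n = 3), with RNA from a pool of isolated glomeruli of that mouse, and the OVE26 arrays are not analysed here. The members are all probe sets, short oligonucleotide groups that read the 3′ part of a transcript, whose single gene symbol is Rab followed by a number and at most 1 letter and 1 further digit. This rule found 132 of 34945 probe sets with a single gene, and they stand for 59 of 18193 genes.

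Rab proteins are small GTPases that switch between a GDP-bound form in the cytosol and a GTP-bound form on a membrane. Each marks a set of membranes, where its GTP form recruits tethers, motors and coats that move vesicles from one compartment to the next. Exchange factors load GTP, GTPase-activating proteins end the signal, and a prenylation machinery with GDP dissociation inhibitors carries the lipid-modified proteins between membranes. In podocytes, the epithelial cells of the filter, endocytosis and recycling of slit diaphragm proteins such as nephrin depend on such traffic.

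Values are log2 GCRMA expression values, and a difference of 1 on this scale is a 2-fold difference. Errors are SD over the 3 mice. A probe set was above background in a mouse when it exceeded the 95th percentile of 80 olfactory and vomeronasal receptor probe sets on the same array, which was 2.58, 2.91 and 2.86 in mice 1, 2 and 3. For a gene with several probe sets, the one with the highest mean stood for it. Probe sets differ in affinity, so the value of one gene was not set against that of another, and all comparisons are between mice within a probe set.

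Markers of the cells in the isolates are given as measured facts beside the Rab values. In every mouse all 7 measured podocyte markers exceeded background, among them Nphs1 (11.19 ± 0.25), as did all 8 of glomerular endothelium and all 6 of mesangium and pericytes. Proximal tubule markers had a mean level of 5.11, 5.91 and 8.00 in mice 1, 2 and 3 over the 10 of 12 above background (not Slc22a6 and Slc22a8). Markers of loop, distal tubule and collecting duct had 6.73, 8.30 and 7.61 over 6 of 12 (not Slc12a3, Hsd11b2, Aqp2, Aqp3, Fxyd4 and Scnn1b). Leukocyte markers had 6.83, 5.69 and 4.88 over 9 of 14 (not Cd68, Adgre1, Itgam, Cd3e and Cd79a). The isolates thus differed in tubule and leukocyte RNA. In such bulk RNA fewer cells of a type and less RNA per cell cannot be told apart. The 3′ minus 5′ difference, a sign of RNA quality, was 1.49, 1.81 and 2.05 for the actin control, highest in mouse 3, and 0.48, 1.08 and 0.92 for the Gapdh control, highest in mouse 2. Each of the 18 bacterial and phage controls peaked on the array of mouse 2.

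Of the 59 Rab genes, 44 (74.6%) were above background in all 3 mice, against 58.3% of all genes. A further 6 were above it in 1 or 2 mice and 9 in none, against 6429 of 18193 genes in none. Every member of the early endosome group (8 of 8) was above background, and so were 11 of 14 in the ER and Golgi group, 11 of 13 in the recycling and surface delivery group and 6 of 11 in the late endosome and lysosome group. In the regulated secretion group only 4 of 9 were. Both cilium Rabs, Rab23 and Rab28, and both Rab40 genes were above it. Of the 132 probe sets, 84 were above background in every mouse, against 18472 of 34945 probe sets with a single gene, and 33 in none.

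**Figure D1:**
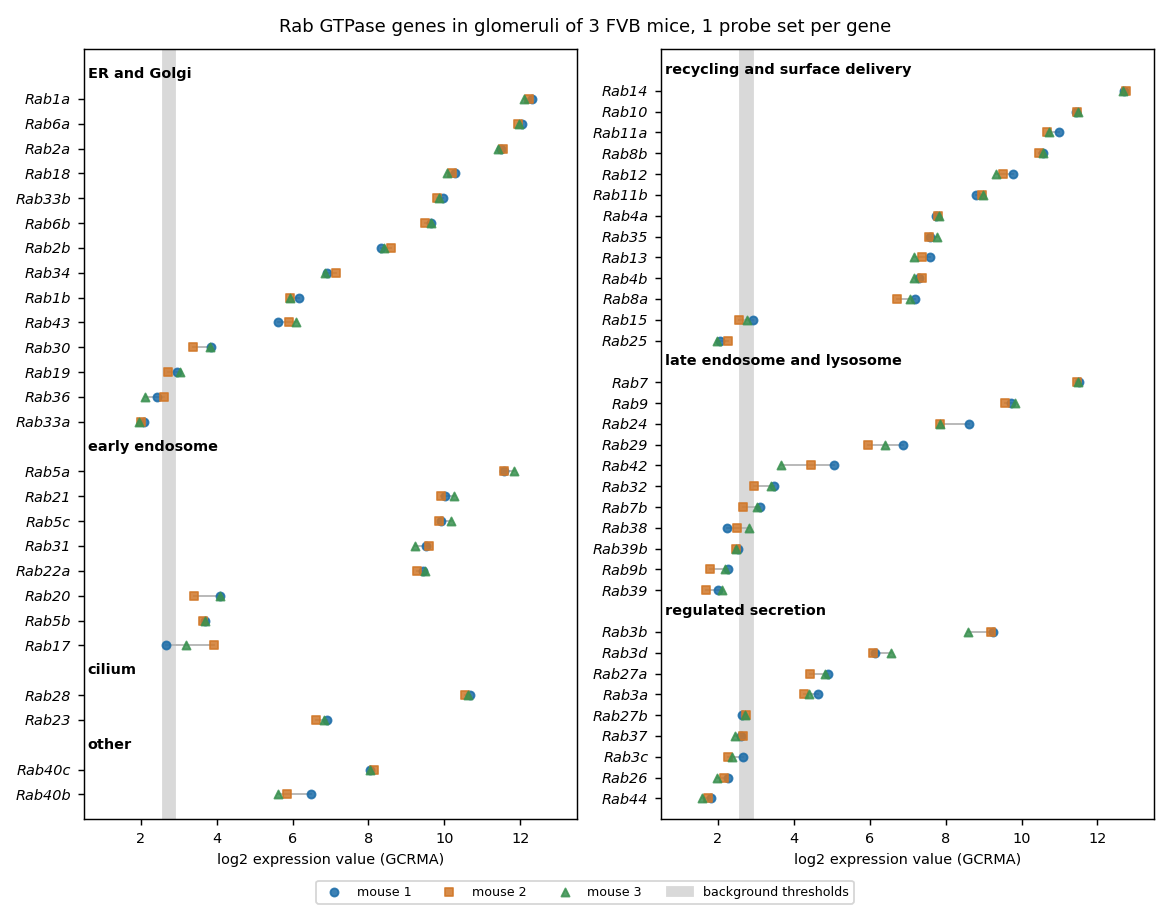
Log2 expression values (x axes) of the 59 Rab genes (rows) in mice 1, 2 and 3, with 1 probe set per gene, grouped by compartment and ordered by mean; the grey band spans the background thresholds of the 3 arrays, 2.58 to 2.91. For most genes the 3 mice nearly coincide, and Rab42 and Rab17 are the widest apart.

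The mice resembled each other in most Rab genes. The SD over the mice ran from 0.0224 for Rab10 to 0.701 for Rab42, with a median of 0.153 against 0.157 over all 10609 genes above background. The median Rab gene differed 1.21-fold between its highest and lowest mouse, and the median gene overall 1.23-fold. The highest and lowest mouse lay less than 0.5 apart in 36 of 44 Rab genes (81.8%), against 75.2% of all genes, and less than 0.25 apart in 19 (43.2%), against 41.2%. Only Rab42 and Rab17 had a 2-fold range, which is 4.55% of the Rab genes against 5.94% of all genes. These shares lie near those of all genes and are not a result about Rab genes. Without mouse 1, 2 or 3 the median SD of the Rab genes was 0.140, 0.0776 and 0.107. An SD over a pair of mice is not like one over 3, and the median over all genes was not taken for these pairs. Without mouse 2 a 2-fold range was found for 1 Rab gene, against 3.42% of all genes. Without mouse 3 it was found for 1 (2.97% of all genes) and without mouse 1 for 0 (3.01% of all genes).

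The spread of each gene was tested for excess in limma, which set the variance of each gene against the distribution fitted over all genes above background, in an upper-tail test. After Benjamini-Hochberg adjustment 0 of 44 Rab genes and 0.0% of all genes passed the threshold of 0.05. At an unadjusted p under 0.05 stood 0 Rab genes and 494 of 10609 genes. The lowest unadjusted p among Rab genes in the limma test was 0.0507 (Rab17), with an adjusted p of 0.972. With 3 arrays and no gene called in the whole table, the test separates no gene from the rest, and the differences below are descriptions of these 3 isolates.

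**Figure D2:**
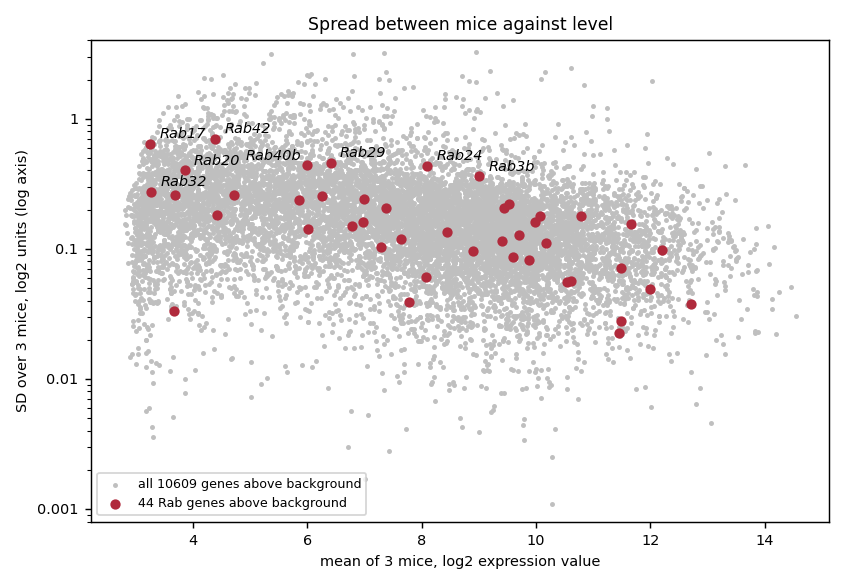
SD over the 3 mice (y axis, log scale, log2 units) against the mean log2 expression value (x axis) for all 10609 genes above background in grey and the 44 Rab genes in red; genes with an SD of 0 cannot be drawn on a log axis. The Rab genes lie inside the cloud of all genes, with SDs from 0.0224 to 0.701, and the 8 largest are named.

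Rab42 had the widest range. This gene of the late endosome and lysosome group was at 5.06, 4.45 and 3.66 in mice 1, 2 and 3, a 2.64-fold range over 1 probe set. Mouse 1 was high and mouse 3 low, the order in which the leukocyte marker Ptprc also lay (7.43, 6.58 and 5.13). Of the leukocyte markers, 8 of 9 were highest in mouse 1. The endothelial markers Kdr, Emcn, Pecam1 and Cdh5 lay in the order of Ptprc too, over ranges of 0.21 to 0.52. The other endothelial markers did not. Rab17, which acts in transcytosis and apical traffic of polarised epithelia, was at 2.65, 3.93 and 3.19, a 2.43-fold range. Mouse 2 was high and mouse 1 lay just over its threshold of 2.58. Of the markers of loop, distal tubule and collecting duct, 5 of 6 were highest in mouse 2 and lowest in mouse 1, with Umod at 12.47, 13.56 and 13.06. Calb1 was not (3.80, 3.64 and 5.55). The second probe set of Rab17 was above background in mouse 1 alone (2.71, 2.39 and 2.61), and the mean of both probe sets had a range of 0.48. The part of leukocyte, endothelial and tubule RNA in the Rab42 and Rab17 values was not tested.

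Next in spread came 3 genes that were highest in mouse 1. Rab29, a partner of the kinase LRRK2 at the Golgi and lysosome, was at 6.88, 5.95 and 6.40, a 1.89-fold range. Rab40b, which carries a SOCS box that recruits a ubiquitin ligase, was at 6.48, 5.87 and 5.63, a 1.80-fold range. Rab24, linked to autophagy, was at 8.61, 7.85 and 7.85, so that mice 2 and 3 were alike and mouse 1 lay 0.75 above their mean. Without mouse 1 the range of Rab24 was 0.0011, that of Rab29 was 0.44 and that of Rab40b was 0.24. Both probe sets of Rab24 placed mouse 1 highest, the other at 7.23, 6.53 and 6.13. Leukocyte markers were high in mouse 1 too (a mean of 6.83 against 5.69 and 4.88), and their part in these values was not tested.

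**Figure D3:**
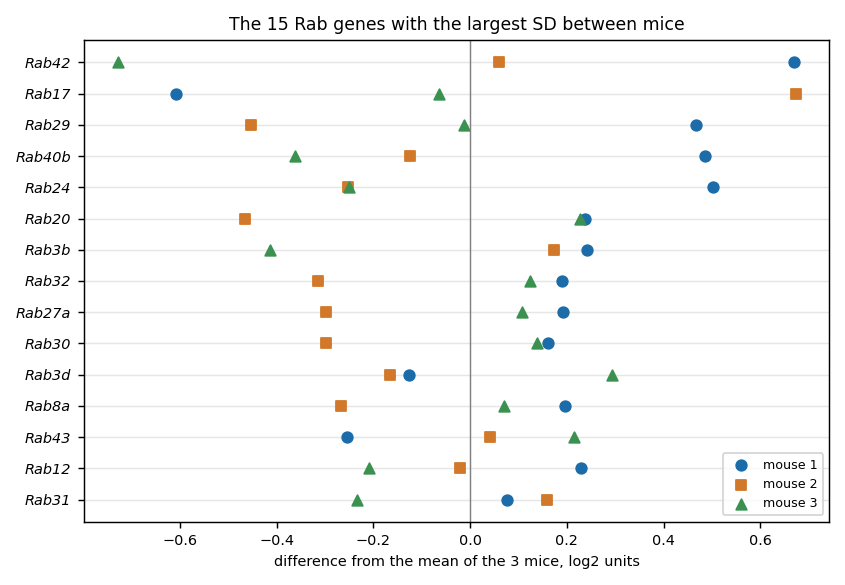
Difference of each mouse from the mean of the 3 mice (x axis, log2 units) for the 15 Rab genes with the largest SD (rows, ordered by SD). Mouse 1 is the highest in Rab42, Rab29, Rab40b and Rab24, mouse 2 in Rab17, and mouse 2 is the lowest in Rab29, Rab20, Rab32, Rab27a, Rab30, Rab3d and Rab8a.

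Promoter sequence was available from RefSeq (build GRCm38.p6) for 48 of the 59 Rab genes. The 250 bases before the annotated start are shown for the 4 genes with the largest SD and for Rab10, the gene with the smallest, to set both ends of the family side by side. Each is written 5′ to 3′ on the strand of its gene. Capitals mark matches, on either strand, to the motifs searched, which were the E-box CACGTG, the cAMP response element TGACGTCA, the GC box GGGCGG, the CCAAT box, TATAAA, the ETS core CCGGAAG and the YY1 core AAGATGGC. The windows lie at chr4:132303357-132303606 (minus strand) for Rab42, chr1:90967668-90967917 (minus strand) for Rab17, chr1:131867027-131867276 (plus strand) for Rab29, chr11:121388252-121388501 (minus strand) for Rab40b and chr12:3309970-3310219 (minus strand) for Rab10.
Rab42: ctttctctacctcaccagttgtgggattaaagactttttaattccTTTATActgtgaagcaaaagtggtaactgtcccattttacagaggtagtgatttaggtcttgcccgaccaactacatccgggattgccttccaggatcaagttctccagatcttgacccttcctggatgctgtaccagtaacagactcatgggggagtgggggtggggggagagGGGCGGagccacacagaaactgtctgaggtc
Rab17: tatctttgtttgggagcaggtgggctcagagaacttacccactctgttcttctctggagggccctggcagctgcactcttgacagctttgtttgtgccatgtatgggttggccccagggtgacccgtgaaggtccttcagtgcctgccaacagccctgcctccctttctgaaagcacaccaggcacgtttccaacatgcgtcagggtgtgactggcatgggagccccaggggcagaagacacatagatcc
Rab29: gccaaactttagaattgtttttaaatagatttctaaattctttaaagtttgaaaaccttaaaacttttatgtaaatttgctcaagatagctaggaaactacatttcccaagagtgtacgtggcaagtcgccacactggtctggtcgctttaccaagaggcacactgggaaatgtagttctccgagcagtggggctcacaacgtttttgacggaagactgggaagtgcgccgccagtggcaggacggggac
Rab40b: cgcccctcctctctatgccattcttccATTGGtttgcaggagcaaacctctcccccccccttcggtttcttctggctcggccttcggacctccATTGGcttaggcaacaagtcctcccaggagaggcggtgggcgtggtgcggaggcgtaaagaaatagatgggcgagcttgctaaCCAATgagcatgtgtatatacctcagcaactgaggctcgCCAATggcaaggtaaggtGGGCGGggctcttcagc
Rab10: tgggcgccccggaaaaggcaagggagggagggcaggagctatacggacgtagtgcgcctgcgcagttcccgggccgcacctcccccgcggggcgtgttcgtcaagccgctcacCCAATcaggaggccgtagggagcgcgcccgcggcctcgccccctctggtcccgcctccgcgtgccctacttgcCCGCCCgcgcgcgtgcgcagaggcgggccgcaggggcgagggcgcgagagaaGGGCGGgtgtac

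These windows differ in base composition. That of Rab10 held 34 CG dinucleotides and 74.8% G and C. Rab42 and Rab17 held 3 CG each, with 49.2% and 56.8% G and C, Rab29 held 9 with 44.0% and Rab40b held 11 with 57.6%. Spread and CG did not go together throughout, since the window of Rab24, the fifth in SD, held 27 CG and 68.8% G and C. Rab40b held matches to the CCAAT box on both strands, and Rab17 and Rab29 held no match to any of these motifs. Over the 60 windows of Rab genes, some of which have several starts, the GC box was found in 66.7%, against 32.7% of the 32851 windows of all genes. The CCAAT box was found in 40.0% against 33.8%, the E-box in 8.33% against 6.02%, the cAMP response element in 3.33% against 1.55% and the YY1 core in 3.33% against 1.56%. TATAAA was found in 6.67% against 12.4% and the ETS core in 5.0% against 6.91%. The median number of CG in the 250 bases was 18 over the 40 Rab genes above background (range 3 to 40), 7.5 over the 8 that were not (4.5 to 18) and 6 over 27025 genes of the table. The table of all genes holds many noncoding genes. These are descriptions of letters and say nothing of which factors bind.

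Rab genes of the ER and Golgi had small SDs, but the SD expected from all genes is also smaller at high levels. Divided by the SD expected at its level, the SD of a gene ran from 0.48 (Rab6a) to 1.16 (Rab30) in this group. The median of this ratio over all genes was 0.958. Rab1a, which acts in transport from the ER to the Golgi, was at 12.31, 12.22 and 12.11 in mice 1, 2 and 3. Its paralog Rab1b was at 6.17, 5.93 and 5.93, with an identical value in mice 2 and 3, and such ties make an SD smaller. Rab2a, of the ER-Golgi intermediate compartment, was at 11.50, 11.54 and 11.40, and Rab2b was at 8.34, 8.60 and 8.40. In none of these 4 did any mouse stand more than 0.26 from another. Rab6a, which serves retrograde transport at the Golgi, was at 12.04, 11.95 and 11.98. The largest SDs of the group were those of Rab30, a Golgi Rab at 3.84, 3.38 and 3.82, and of Rab43 at 5.61, 5.90 and 6.08. All 11 genes of the group had a range under 0.5, against 75.2% of all genes, and the median SD was 0.111. Rab18 (10.28, 10.21 and 10.06), Rab33b, Rab34 and Rab6b complete the group, while Rab19, Rab33a and Rab36 were not above background in every mouse.

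In the early endosome group mouse 3 was the highest in 4 of 8 genes, against 36.3% of all genes, and mouse 2 the lowest in 5, against 35.0%. Counts over so few genes are given as a description. Rab5a, which directs fusion of endocytic vesicles with early endosomes, was at 11.57, 11.58 and 11.85, and Rab5c at 9.92, 9.86 and 10.16. Rab21, linked to integrin endocytosis, was at 10.01, 9.92 and 10.26. In these 3 genes mouse 3 stood above the mean of the other mice by 0.27 (Rab5a), 0.27 (Rab5c) and 0.30 (Rab21), with ranges of 1.21-fold to 1.27-fold. Proximal tubule markers were also highest in mouse 3 (9 of 10), and their part was not tested.
Rab5b (3.69, 3.63 and 3.69) had the same value in mice 1 and 3. Its second probe set was at 3.02, 4.07 and 3.39, a range of 1.05 in which mouse 2 was high, as in Rab17, and the order of the mice was that of Umod. Rab20, which is found on phagosomes and apical vesicles, was at 4.09, 3.39 and 4.09, so that mouse 2 alone was low, and without mouse 2 its range was 0.0096. Rab31 (9.53, 9.61 and 9.21) was lowest in mouse 3 and Rab22a (9.45, 9.27 and 9.49) in mouse 2.

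The recycling and surface delivery group held the gene with the smallest SD. Rab10, which serves insertion of the glucose transporter GLUT4 and basolateral transport, was at 11.45, 11.45 and 11.49. Its other probe sets differed in this, at 10.56, 10.33 and 10.56 (SD 0.135) for one and 9.21, 9.21 and 9.20 (SD 0.0090) for the other. Rab14, of the Golgi and endosomes, was at 12.69, 12.75 and 12.67, and Rab4a, of fast recycling, at 7.75, 7.80 and 7.82. Together with Rab7 and Rab5b these were the 5 Rab genes with the smallest SD, from 0.0224 to 0.0391. Rab4b was at 7.29, 7.38 and 7.18, and Rab8b, which acts in delivery to the plasma membrane, at 10.56, 10.47 and 10.57. Rab8a, its paralog with a role in ciliary and apical membrane delivery, was lower in mouse 2, at 7.19, 6.72 and 7.06. Rab11a, of the recycling endosome, was highest in mouse 1, at 10.99, 10.66 and 10.72, and Rab11b was lowest there, at 8.80, 8.95 and 8.98. Other probe sets did not share this contrast. The second of Rab11a was lowest in mouse 1 (10.59, 10.70 and 10.73). Those of Rab11b were at 8.70, 8.58 and 8.93 and, highest in mouse 1, at 7.56, 7.08 and 7.46. Rab12 (9.77, 9.52 and 9.33) and Rab13 (7.58, 7.37 and 7.17), the latter known from tight junctions, both ran from mouse 1 down to mouse 3. The leukocyte marker Ptprc lay in this order, and so did the endothelial markers Kdr, Emcn, Pecam1 and Cdh5. The endothelial markers Ehd3, Tek, Flt1 and Plvap did not, and the part of these cells was not tested. The second probe set of Rab12 ran the other way (4.37, 4.61 and 4.67). All 11 genes above background, Rab35 among them, had a range under 0.5, against 75.2% of all genes, and the median SD of the group was 0.103. Divided by the SD expected at its level, the SD of a gene ran from 0.21 (Rab10) to 1.70 (Rab12). It was 1.57 for Rab11a, and the median of this ratio over all genes was 0.958. Rab25, an epithelial relative of Rab11, was above background in no mouse (2.05, 2.26 and 1.96), and Rab15 was above it in mouse 1 alone.

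The late endosome and lysosome group had the highest median SD, 0.355 over 6 genes against 0.157 over all genes, and 5 of 6 were highest in mouse 1, against 35.1% of all genes. The lowest value lay in mouse 2 in 5 of 6, against 35.0% of all genes. Leukocyte markers were highest in mouse 1 as well (8 of 9), but they were lowest in mouse 3 (8 of 9), and their part was not tested. Its central member Rab7, which drives maturation of late endosomes and their fusion with lysosomes, was at 11.51, 11.46 and 11.50, an SD of 0.0276. Rab9, which returns cargo from late endosomes to the Golgi, was at 9.72, 9.57 and 9.82. The spread came from Rab42, Rab29 and Rab24, given above, and from Rab32, a Rab of melanosomes and other lysosome-related organelles, at 3.46, 2.96 and 3.40. Rab7b was above background in mice 1 and 3 (3.12, 2.66 and 3.03). Rab38, the paralog of Rab32, was at 2.24, 2.51 and 2.81 and above background in no mouse. Rab9b, Rab39 and Rab39b were also above background in no mouse.

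Of the regulated secretion group, Rab3a, Rab3b, Rab3d and Rab27a were above background. Rab3b, one of the Rab3 proteins that dock secretory vesicles, was at 9.25, 9.18 and 8.59, a 1.58-fold range in which mouse 3 alone was low. Without mouse 3 its range was 0.0677. Podocyte markers were lowest in mouse 3 in 6 of 7 genes, among them Nphs1 at 11.36, 11.30 and 10.90 and Podxl at 14.56, 14.56 and 14.51, and the part of podocyte content in the value of Rab3b was not tested. Rab3a, whose protein is known from synaptic vesicles and has been described in podocytes, was at 4.63, 4.27 and 4.40. Rab3d, of granules in exocrine cells, was at 6.13, 6.09 and 6.55, and Rab27a, which tethers granules and exosome precursors to the actin cortex, at 4.90, 4.42 and 4.82. For Rab27a only 1 of 4 probe sets was above background. Rab3c (2.66, 2.26 and 2.36), Rab27b and Rab37 were above background in 1 mouse each. Rab26, at 2.26, 2.17 and 1.98, and Rab44, at 1.81, 1.74 and 1.57, were above it in none.

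The remaining Rabs were steady apart from Rab40b. Rab23, which restrains Hedgehog signalling at the cilium, was at 6.90, 6.61 and 6.83, and Rab28, found at the base of cilia, at 10.66, 10.55 and 10.62. Rab40c was at 8.04, 8.14 and 8.04.

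Small differences in the same direction recurred over the family. Of the 44 Rab genes, 24 (54.5%) were highest in mouse 1, against 35.1% of all genes, 8 in mouse 2 (28.6% of all genes) and 12 in mouse 3 (36.3% of all genes). In mouse 2 lay the lowest value of 24 Rab genes, against 35.0% of all genes. The lowest value lay in mouse 1 for 7 (33.3% of all genes) and in mouse 3 for 13 (31.7% of all genes). A tie was counted for the first of the tied mice, so Rab5b was counted as highest in mouse 1 and Rab1b as lowest in mouse 2. The sizes were small. The median Rab gene was 0.08 higher in mouse 1 than the mean of the other mice, against 0.00 over all genes, and it was lower in mouse 2, with a median difference of -0.09 against -0.02. Counted over probe sets, 37 of 84 (44.0%) were highest in mouse 1, against 34.7% of all probe sets above background, and 38 (45.2%) were lowest in mouse 2, against 35.0%. No test was run on these counts, since each mouse is 1 array. Several other measures lay apart in the same mice. In mouse 1 leukocyte markers were highest (8 of 9) and so were endothelial markers (6 of 8). Lowest there were 9 of 10 proximal tubule markers and 5 of 6 of loop, distal tubule and collecting duct. The Gapdh 3′ minus 5′ difference was lowest in mouse 1 (0.48) and highest in mouse 2 (1.08), and the bacterial and phage controls were highest on the array of mouse 2. The actin difference was also lowest in mouse 1 (1.49), but it was highest in mouse 3 (2.05) and not in mouse 2 (1.81). The part of these in the Rab values was not tested.

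**Figure D4:**
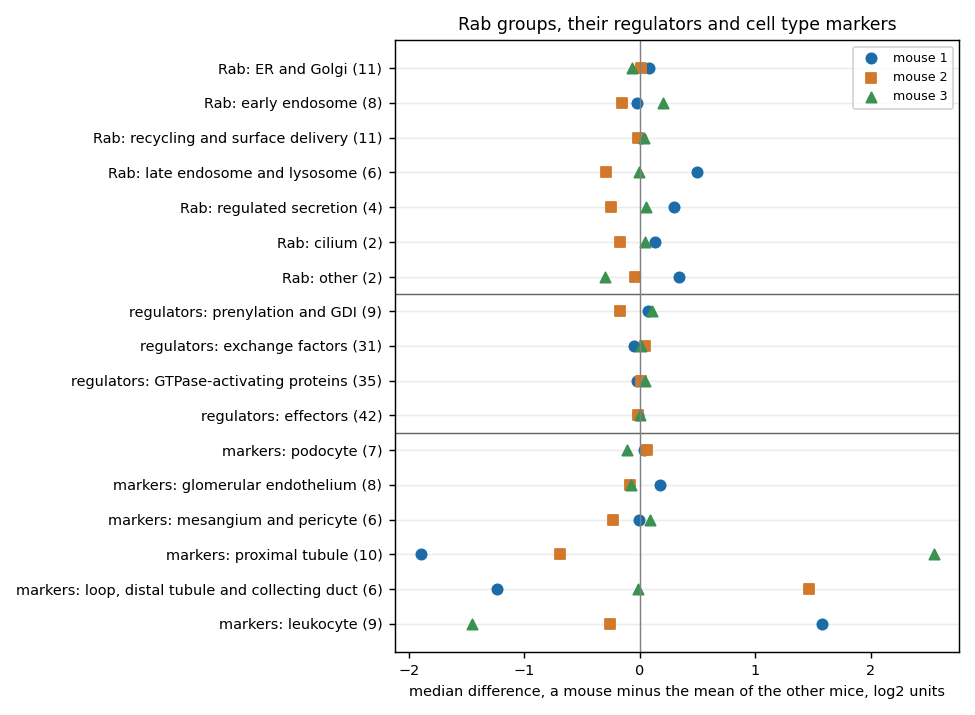
Median difference of each mouse from the mean of the other mice (x axis, log2 units) for the Rab groups, the regulators of Rabs and cell type markers (rows, with the number of genes above background in brackets). The Rab and regulator groups lie within 0.5 of 0, and the late endosome and lysosome Rabs are the farthest out (0.49 in mouse 1), while tubule and leukocyte markers reach 2.54 and 1.57.

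Several probe sets of a Rab gene often disagreed on the order of the mice. Of the 24 Rab genes with more than 1 probe set above background, 7 (29.2%) had every such probe set highest in the same mouse, against 38.4% of all genes with several. These were Rab7, Rab18, Rab21, Rab24, Rab28, Rab30 and Rab34. The probe sets of Rab43 ran in opposite orders, at 5.61, 5.90 and 6.08 for one and 4.14, 3.71 and 3.47 for the other. For Rab18 the size differed, since the second probe set was at 6.10, 5.17 and 5.21 where the first spanned 0.22. For Rab28 the second probe set was at 7.69, 7.24 and 7.05 where the first spanned 0.11. The 7 probe sets of Rab14 gave ranges from 0.07 to 0.52, and each mouse was the highest in at least 1 of them. In Rab2a the 5 probe sets above background also divided among the mice. At the probe set level 4 of 84 had a 2-fold range, against 5.87% of all probe sets, and they belong to Rab42, Rab17, Rab5b and Rab24. In 17 of the 24 genes the probe sets did not all peak in the same mouse. Small mouse-to-mouse differences of a single probe set were thus often not shared by another of the same gene, as in Rab11a, Rab12 and Rab1a. Rab1a had the values 10.92, 10.78 and 10.96 in its second probe set, with mouse 3 highest and not mouse 1. Of the 44 chosen probe sets, 33 had the plain suffix, 7 are built to read several transcripts of 1 gene, and 4 carry a suffix for probes that may also match other genes (those of Rab2a, Rab4a, Rab14 and Rab22a).

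**Figure D5:**
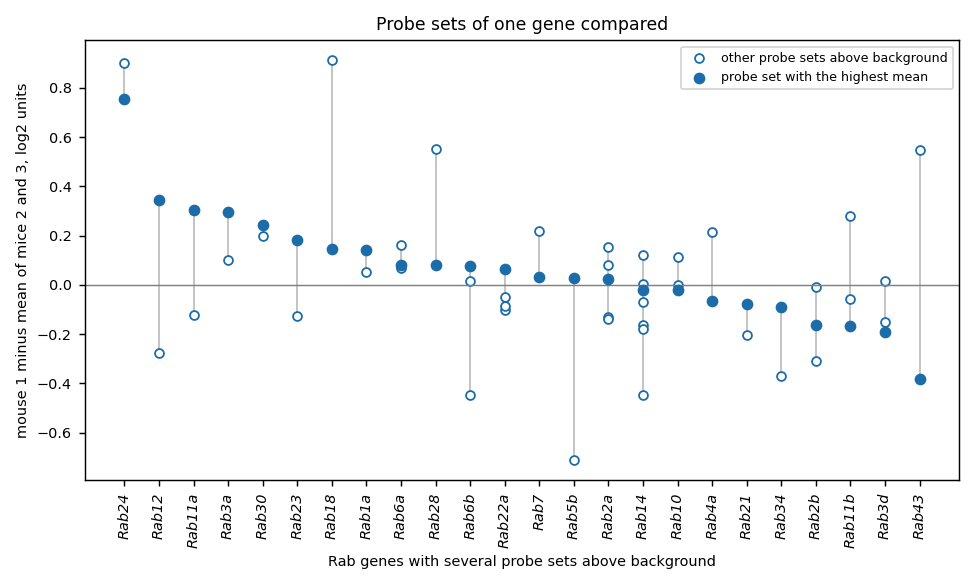
Difference of mouse 1 from the mean of mice 2 and 3 (y axis, log2 units) for every probe set above background of the 24 Rab genes with several (x axis); filled points are the probe set with the highest mean and open points the others. Both probe sets of Rab24 lie at 0.75 or above, while those of Rab43, Rab12, Rab5b and Rab11b lie on both sides of 0.

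The regulators of Rab proteins were read in the same way. Of 132 measured regulator genes, 117 exceeded background in all mice, against 58.3% of all genes, a share that also stands beside the counts of each kind of regulator given next. Their median SD was 0.146, against 0.153 in the Rab genes and 0.157 over all genes, and 4 had a 2-fold range, against 5.94% of all genes. None had an adjusted p under 0.05 in the limma test. All 9 measured genes of prenylation and membrane extraction were above background. Gdi2, a GDP dissociation inhibitor, was at 12.96, 12.93 and 13.00, and Chm, the escort protein that presents Rabs for prenylation, at 10.11, 9.82 and 9.89. Both subunits of the Rab geranylgeranyl transferase were lower in mouse 2, with Rabggta at 3.95, 3.20 and 4.20 and Rabggtb at 8.68, 8.09 and 8.21. Rabif, whose protein binds and stabilises nucleotide-free Rabs, was at 8.59, 8.44 and 9.35. In this group mouse 2 was lowest in 8 of 9 genes, against 35.0% of all genes. The larger groups did not share this. Mouse 2 was lowest in 7 of 31 exchange factors, 12 of 35 GTPase-activating proteins and 15 of 42 effectors. Over all 117 regulators, 28 were highest in mouse 1 (35.1% of all genes) and 44 were lowest there (33.3% of all genes), unlike the Rab genes. The Gapdh 3′ minus 5′ difference (1.08) and all 18 bacterial and phage controls were highest on the array of mouse 2. The actin difference was highest in mouse 3 (2.05 against 1.81 in mouse 2). The part of these in the values was not tested.

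Among exchange factors 31 of 35 measured genes were above background. Rabgef1, which activates Rab5, was at 8.94, 8.93 and 9.19, and Rab3ip, which activates Rab8, at 7.31, 7.67 and 7.97. Rin3, an exchange factor for Rab5 proteins and Rab31, had the largest range, at 6.48, 6.69 and 8.29, which is 3.51-fold. Mouse 3 alone was high, as were the proximal tubule markers, and their part was not tested. Rin1 (5.32, 5.63 and 4.84) and Mon1a (5.38, 5.48 and 6.15), of the complex that activates Rab7, followed. Of the GTPase-activating proteins 35 of 38 were above background, with Rab3gap1 at 9.24, 9.31 and 9.22 and Rab3gap2 at 7.57, 7.34 and 7.56. Tbc1d8 alone in this group had a 2-fold range (4.48, 4.14 and 3.37). Its values lay in the order of most leukocyte markers and of the endothelial markers Kdr, Emcn, Pecam1 and Cdh5, and their part was not tested. Tbc1d17 (5.20, 5.51 and 5.81) and Tbc1d31 (3.53, 3.71 and 3.17) came next.

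Of the effectors, which bind the GTP form, 42 of 50 measured genes were above background. The Rab5 effectors Rabep1 (8.68, 8.71 and 8.43) and Rabep2 (9.06, 9.44 and 9.14) had ranges of 0.28 and 0.38. The 3 largest SDs were those of Sytl2, Myrip and Exph5, each known to bind Rab27. Others known to do so were low or steady, since Sytl1, Sytl4, Mlph and Unc13d were not above background in every mouse and Rph3al was at 4.14, 4.04 and 4.22. Sytl2, a synaptotagmin-like protein, was at 3.92, 6.06 and 4.72, a 4.42-fold range in which mouse 2 was high, as for Rab17. Mouse 2 was also highest in 5 of 6 markers of loop, distal tubule and collecting duct, whose part was not tested. Myrip, which links Rab27a to a myosin, was at 7.81, 6.74 and 7.84, so that mouse 2 was low. Exph5 was at 4.59, 5.49 and 4.59, with the same value in mice 1 and 3 and mouse 2 high. Their adjusted p in the limma test was 0.836 for Sytl2 and 0.972 for the others. The order of the mice thus differed among these effectors, and none followed that of Rab27a (4.90, 4.42 and 4.82) apart from the low value of mouse 2 in Myrip.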

How the data were processed

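Expression in glomeruli of 3 nondiabetic FVB/NJ mice was read from the deposited table of log2 values, 1 array per mouse. Per the submitters' processing notes the authors used GCRMA, which corrects background, normalises arrays and summarises each probe set; its version and the arrays normalised together are not given in the sources used here. No label states the scale, which was read as log2 from the range of 0.67 to 14.76. Gene names came from the platform annotation, and probe sets of several genes and the 64 control probe sets were not used for any gene. There were 0 columns of values left unused.

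Genes were tested when their probe set with the highest mean exceeded background (the 95th percentile of 80 olfactory and vomeronasal receptor probe sets) on all 3 arrays. Variance was tested in limma 3.58.1 (R 4.3.3) with a robust prior that follows mean level, one-sided, with Benjamini-Hochberg adjustment over 10609 genes. Tables were made with pandas 2.3.3 in Python 3.11.15. The labels call the arrays separate mice of 1 group, so no groups were compared. The number of arrays limits the precision of all values, and signal near the threshold adds to it.

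Given with the value in every mouse are the Rab genes with a 2-fold range, with the 15 largest and 5 smallest SDs, the first 4 with a probe set in each compartment list, and examples of those whose probe sets differed. For regulators these are the first 2 and the 3 largest SDs of each list, and for markers examples of the first 2. Other Rab genes and endothelial markers named were chosen after their values were seen. The members and lists were chosen with earlier results of these data known. Protein sequences were not used here. Promoter windows came from the RefSeq table.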

Additional observations from a re-analysis of the deposited data

How the results depend on the processing

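The alternatives were a 99th percentile or fixed background of 5, no filter on dim genes, the mean over probe sets, leaving out probe sets that may match several genes, quantile normalisation, median centring, a prior without trend or not robust, and leaving out each mouse. Testing each probe set on its own was chosen after seeing the data. Under every one of these 0 Rab genes passed the adjusted threshold of the limma test, and at most 2 stood at an unadjusted p under 0.05. That test called no gene in the table, so this says nothing of stability.

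The number of Rab genes with a 2-fold range was 2 (5.94% of all genes). It was 1 with the 99th percentile (5.02% of all genes) and 1 with the mean over probe sets (4.28%). It was 0 with the fixed background (3.43%), which removes Rab17 and counts Rab42 as dim. For single probe sets it was 4 (5.87% of all probe sets), and without 1 mouse 0 to 1 (2.97% to 3.42% of all genes). A 1.5-fold range was reached by 7, against 18.1% of all genes. Above background were 36 to 46 genes under the alternatives per gene, and 84 single probe sets. The median SD was 0.0776 to 0.140 without 1 mouse. Highest in mouse 1 were 17 of 36 genes with the fixed background and 21 of 43 with the mean over probe sets. Without probe sets that may match several genes these were 26 of 44. Shares over all genes were not taken for these 3 settings. Of single probe sets, 37 of 84 were highest in mouse 1, against 34.7% of all probe sets above background. In mouse 2 the highest single probe sets were 17 and in mouse 3 30. With only a pair of mice left to compare, 31 genes were highest in mouse 1, 13 to 16 in mouse 2 and 15 to 28 in mouse 3. Shares over all genes were not taken for these pairs, so these counts are no result about Rab genes. Of 139 ranges recomputed for the 15 Rab genes with the largest SD, 120 moved by less than the SD of the gene or not at all. The other backgrounds, no filter and leaving out probe sets that may match several genes could not move these ranges. Averaging a single probe set or leaving out the middle mouse could not either, so the count says nothing of stability. No paired analysis was possible because there is 1 group. Signal near the background threshold limits Rab17, Rab32 and the Rab genes below it.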
